A study of Homo sapiens with 6 samples.

Results

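The cytosolic chaperonin CCT, also called TRiC, is a double-ring machine that folds newly made proteins, and its 8 subunit genes are the subject here. They are Tcp1, Cct2, Cct3, Cct4, Cct5, Cct6a, Cct7 and Cct8, chosen by gene name out of the 53492 genes in the tables. Each name stood on 1 row in every library, and all 8 passed the filter on low values, a mean of at least 1 FPKM over the libraries. FPKM is the number of fragments assigned to a gene, scaled by transcript length and by library size.

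Each ring of CCT holds one copy of every subunit in a fixed order, and ATP binding closes a built-in lid over the folding chamber. Actin and tubulin are its best known clients, together with WD40 proteins such as the mitotic activator CDC20 and G protein beta subunits. Prefoldin hands it unfolded chains, and phosducin-like proteins assist folding in its chamber. Neurons rely on it for the tubulin of their neurites.

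Polyadenylated RNA was sequenced from 3 libraries labelled GFP-CCNB1IP1 and 3 labelled GFP. Per the labels, the cells are SH-SY5Y, a human neuroblastoma line, carrying the plasmid pCS2-eGFP-CCNB1IP1 in the first group and pCS2-eGFP-N in the second. GFP is a green fluorescent protein present in both groups, and CCNB1IP1 is a ubiquitin ligase that binds cyclin B. The labels give neither the time after transfection nor the share of cells that took up plasmid. They do not say whether the replicates were separate cultures, and p-values cover only the spread among these libraries, which may be technical.

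The tables go against the labelled species. All 53492 identifiers were those of mouse genes, and the mouse histocompatibility gene H2-K1 was abundant, at 355 to 406 FPKM in GFP-CCNB1IP1 libraries and 366 to 405 FPKM in GFP libraries. All values below are therefore those of mouse genes. Mouse Ccnb1ip1 reached at most 0.191 FPKM in the GFP-CCNB1IP1 libraries and 0.125 FPKM in the GFP libraries. The introduced sequence was not analysed here, so these values do not check the labels unless the plasmid carried the mouse gene. Of 8 markers of noradrenergic neuroblastoma, 6 had a mean of at least 1 FPKM. The 8 markers summed to 242 to 260 FPKM in the GFP-CCNB1IP1 libraries and 247 to 287 FPKM in the GFP libraries. The 4 Schwann cell markers summed to at most 1.53 FPKM in GFP-CCNB1IP1 libraries and 0.901 FPKM in GFP libraries. The 4 fibroblast markers summed to at most 2.36 FPKM in GFP-CCNB1IP1 libraries and 2.54 FPKM in GFP libraries, with Col3a1 listed at 0. The 4 macrophage markers summed to 4.29 FPKM in GFP-CCNB1IP1 replicate 2, which stood apart, against 0.341 and 0.465 FPKM in GFP-CCNB1IP1 replicates 1 and 3 and at most 0.690 FPKM in GFP libraries. The part of these markers in the results was not tested. Library depth was estimated from the deposited confidence intervals and ranged from 0.743 to 1.06 times the mean of the GFP libraries, lowest in GFP-CCNB1IP1 replicate 2.

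All 8 subunit genes were among the most abundant transcripts. Between 96.2 and 98.7% of the 13231 genes tested had a lower mean level than a given subunit. Summed over the 8 genes, the level was 1502, 1441 and 1466 FPKM in GFP-CCNB1IP1 replicates 1 to 3, against 1455, 1431 and 1425 FPKM in GFP replicates 1 to 3. The groups overlapped, since GFP replicate 1 lay above GFP-CCNB1IP1 replicate 2. The means were 1469.5 ± 30.8 FPKM in GFP-CCNB1IP1 libraries and 1437 ± 16.2 FPKM in GFP libraries (SD, n = 3 each), a ratio of 1.02. The pool made up 0.301 to 0.315% of all FPKM in GFP-CCNB1IP1 libraries and 0.298 to 0.310% in GFP libraries. In bulk samples, fewer cells with a transcript and less RNA per cell cannot be told apart.

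**Figure D1:**
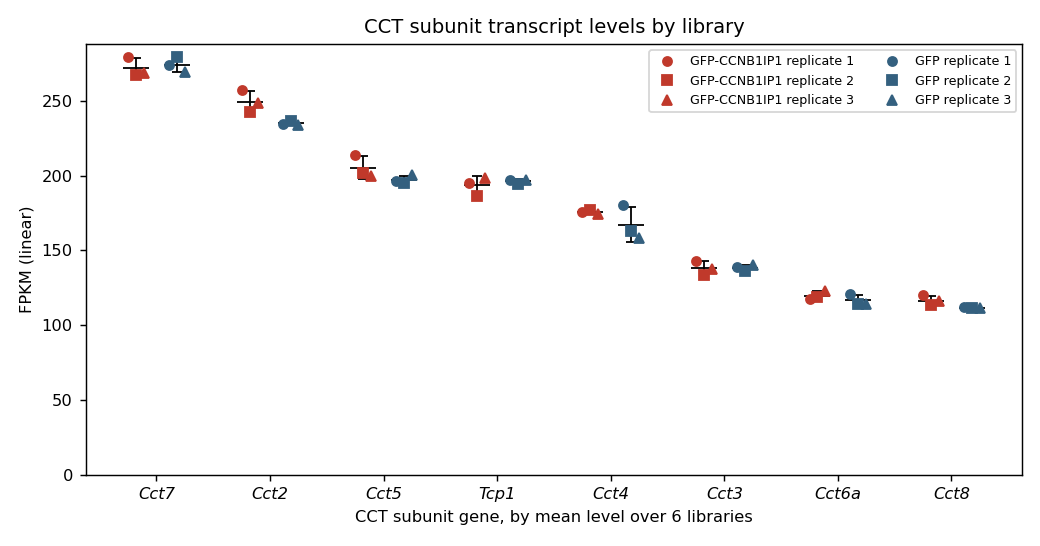
FPKM (linear axis) of the 8 CCT subunit genes in each library, with GFP-CCNB1IP1 libraries in red to the left of GFP libraries in blue; black marks are the mean and SD of 3 libraries. Levels run from about 273 FPKM for Cct7 to 114 FPKM for Cct8, and this span exceeds the difference between the group means of any single subunit.

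Transcript levels per length were unequal between subunits that occur in equal numbers in the ring. Over the 6 libraries, Cct7 had the highest mean (273 FPKM), followed by Cct2 (242 FPKM), Cct5 (201 FPKM), Tcp1 (195 FPKM), Cct4 (171 FPKM), Cct3 (138 FPKM), Cct6a (118 FPKM) and Cct8 (114 FPKM). The mean of Cct7 was 2.39 times that of Cct8. Neighbours in this order had separate ranges over the 6 libraries, with Cct5 and Tcp1, and Cct6a and Cct8, as the exceptions. In both of those pairs the first gene was above the second in 5 of 6 libraries.

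No subunit gene passed the test of a difference between the groups. At an adjusted p under 0.05, 0 of 8 were called by limma on log2(FPKM + 1) with Benjamini-Hochberg adjustment over all genes, and 0 of 8 had an unadjusted p under 0.05. Of all genes tested, 0.00756% were called, and 11.4% had an unadjusted p under 0.05. The 1 gene called was the gene model Gm20305, which was not called under 8 of 16 other settings. These included leaving out GFP-CCNB1IP1 replicate 1, where Gm12208 was called in its place, and leaving out GFP replicate 2 or 3, where 0 genes were called. The adjusted p of the subunits lay between 0.484 and 0.986. The 95% intervals of all 8 fold changes included 0, and together they spanned from 7.83% lower to 15.0% higher in GFP-CCNB1IP1 libraries. The pseudocount of 1 shrinks the fold change of a low gene and matters little at these levels.

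The point estimates were positive for 5 subunits and negative for 3 (6 and 2 with loci under 300 bases left out, where Cct3 turned positive), with a median log2 fold change of 0.047 against 0.0037 over all genes tested. The median absolute log2 fold change was also 0.047, against 0.083 over all genes and 0.062 over the 421 genes with a mean of 100 to 300 FPKM. The median was 0.029 without GFP replicate 3, 0.055 without GFP-CCNB1IP1 replicate 2 and 0.025 with quantile normalization. For 2 of 8 subunits, Cct2 and Cct8, the groups did not overlap, both higher in GFP-CCNB1IP1 libraries, where 8.7% of all genes showed separation in that direction. For 0 of 8 did they separate in the lower direction, against 8.9% of all genes, or 17.6% in either direction.

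**Figure D2:**
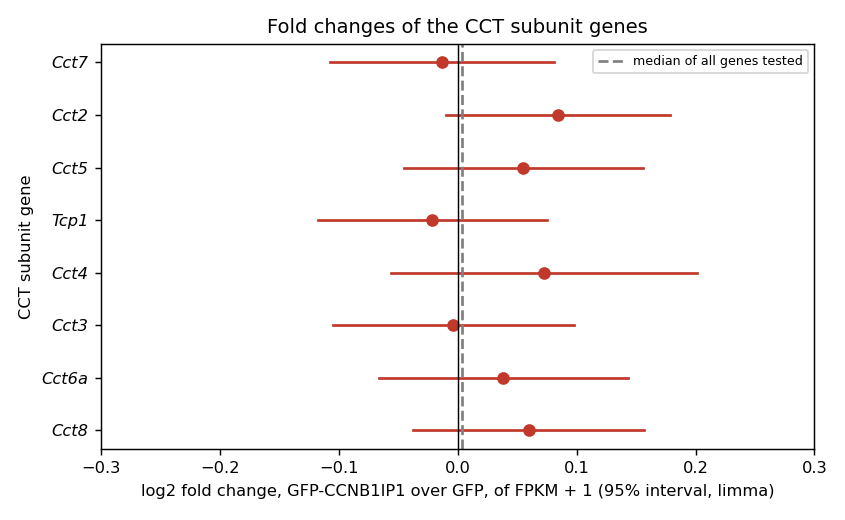
Log2 fold change of FPKM + 1 for each subunit gene, GFP-CCNB1IP1 over GFP (x axis), with its 95% interval from limma; the dashed line is the median of all genes tested. All 8 intervals cross 0, and Cct2 has the highest estimate, at 0.084.

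Cct2, Cct4 and Cct5 encode neighbouring subunits that in yeast bind ATP strongly. Cct2 (beta subunit; ENSMUSG00000034024.9, chromosome 10, 116886906 to 116899719, in a genome build that no source used here names) had 257, 242 and 248 FPKM in GFP-CCNB1IP1 replicates 1 to 3, against 235, 236 and 234 FPKM in GFP replicates 1 to 3. Every GFP-CCNB1IP1 library was above every GFP library. The means were 249 ± 7.46 FPKM in GFP-CCNB1IP1 libraries and 235 ± 1.27 FPKM in GFP libraries (SD, n = 3 each). The log2 fold change was 0.084 (SE 0.041; limma, adjusted p = 0.484). Its interval ran from 0.679% lower to 13.2% higher, and the difference did not pass. This was the highest point estimate of the 8, but Cct4 was above it without GFP-CCNB1IP1 replicate 1 (0.073 for Cct4 and 0.062 for Cct2) and without GFP replicate 1 (0.128 for Cct4 and 0.083 for Cct2). CCT2 protein has also been described as a receptor for aggregates in autophagy.

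Cct4 (delta subunit; ENSMUSG00000007739.11, chromosome 11, 22940519 to 22953780) varied most among the GFP replicates. It had 176, 177 and 174 FPKM in GFP-CCNB1IP1 libraries, against 180.5, 163 and 158 FPKM in GFP libraries. The highest value of all 6 was in GFP replicate 1, while the other two GFP libraries were the lowest. The coefficient of variation was 0.882% in GFP-CCNB1IP1 libraries and 7.02% in GFP libraries, and the log2 fold change was 0.073 (SE 0.056; limma, adjusted p = 0.667). Without GFP replicate 1 it was 0.128, without GFP replicate 3 it was 0.033, and with quantile normalization it was 0.046.

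Cct5 (epsilon subunit; ENSMUSG00000022234.16, chromosome 15, 31590946 to 31601950) is known from inherited sensory neuropathy in humans. Its levels were 214, 202 and 199.7 FPKM in GFP-CCNB1IP1 libraries, against 197, 195 and 200.2 FPKM in GFP libraries. GFP-CCNB1IP1 replicate 1 stood above the rest, and the groups overlapped at their edge. The log2 fold change was 0.055 (SE 0.043; limma, adjusted p = 0.679), and without GFP-CCNB1IP1 replicate 1 it was 0.025.

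Tcp1 (alpha subunit; ENSMUSG00000068039.14, chromosome 17, 13134588 to 13143954) gave the complex its name, after the mouse t-complex locus. It had 195, 187 and 198 FPKM in GFP-CCNB1IP1 libraries, against 197, 195 and 197 FPKM in GFP libraries. The lowest value was in GFP-CCNB1IP1 replicate 2, the shallowest library, and the highest in GFP-CCNB1IP1 replicate 3. The log2 fold change was -0.021 (SE 0.042; limma, adjusted p = 0.884), and without GFP-CCNB1IP1 replicate 2 it was 0.0038. It was -0.039 without GFP-CCNB1IP1 replicate 3 and -0.057 with quantile normalization.

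Cct7 (eta subunit; ENSMUSG00000030007.9, chromosome 6, 85428496 to 85445457) was the most abundant. It had 279.6, 267 and 269 FPKM in GFP-CCNB1IP1 libraries, against 274, 279 and 269.5 FPKM in GFP libraries. The groups overlapped throughout, and the highest library was only 1.05 times the lowest. The log2 fold change was -0.013 (SE 0.041; limma, adjusted p = 0.931), and its interval ran from 7.18% lower to 5.78% higher. The estimate was -0.034 without GFP-CCNB1IP1 replicate 1, 0.00024 without GFP replicate 2 and -0.030 with quantile normalization.

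Cct3, Cct6a and Cct8 were the 3 subunit genes with the lowest transcript levels. Cct3 (gamma subunit; ENSMUSG00000001416.14, chromosome 3, 88204423 to 88229074) had 143, 134 and 137 FPKM in GFP-CCNB1IP1 libraries, against 139, 136 and 140.1 FPKM in GFP libraries. Both the highest and the lowest library were GFP-CCNB1IP1 libraries. Its log2 fold change was -0.0040 (SE 0.044; limma, adjusted p = 0.986). The estimate was -0.030 without GFP-CCNB1IP1 replicate 1, 0.019 without GFP-CCNB1IP1 replicate 2 and -0.039 with quantile normalization.

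Cct6a (zeta subunit; ENSMUSG00000029447.14, chromosome 5, 129864062 to 129875212) had 117, 119 and 123 FPKM in GFP-CCNB1IP1 libraries, against 121, 114 and 114 FPKM in GFP libraries. As for Cct4, GFP replicate 1 was high among the GFP libraries and made the groups overlap. The log2 fold change was 0.038 (SE 0.045; limma, adjusted p = 0.794). It was 0.018 without GFP-CCNB1IP1 replicate 3, 0.065, 0.025 and 0.024 without GFP replicates 1, 2 and 3, and 0.0099 with quantile normalization. Its testis-enriched paralog Cct6b was listed at 0 in all 3 GFP-CCNB1IP1 libraries and reached at most 0.058 FPKM in GFP libraries. Cct8l1, a relative of Cct8, reached at most 0.033 FPKM in GFP-CCNB1IP1 libraries and 0.026 FPKM in GFP libraries.

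Cct8 (theta subunit; ENSMUSG00000025613.14, chromosome 16, 87280214 to 87292761) promotes assembly of the complex when raised in worms and in human stem cells. It had 120.0, 113 and 116 FPKM in GFP-CCNB1IP1 libraries, against 112, 111 and 111 FPKM in GFP libraries. The lowest GFP-CCNB1IP1 library was above the highest GFP library by less than the spread among the GFP-CCNB1IP1 libraries. The log2 fold change was 0.060 (SE 0.042; limma, adjusted p = 0.638), with an interval from 2.58% lower to 11.5% higher. Without GFP-CCNB1IP1 replicate 1 it was 0.038.

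The precision of single values was high. The deposited upper bounds lay 3.18 to 5.09% above a subunit's FPKM. Read as counting error alone, these distances correspond to 1542 to 3944 fragments behind each value. Since the tables give no counts, these figures rest on that reading and are not measured fragment numbers. The coefficient of variation among 3 replicates was between 0.541 and 7.02%, and the highest library was 1.05 to 1.14 times the lowest for each gene. Over the members, GFP-CCNB1IP1 replicate 1 was the highest library for 5 of 8 genes, and GFP replicate 3 and GFP-CCNB1IP1 replicate 2 were each the lowest for 3.

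Because a ring needs all 8 subunits, each gene was also set against the sum of the 8. Even shares would be 12.5%, and observed shares ran from 7.72 to 19.5%. Cct2 made up 16.8 to 17.1% of the pool in GFP-CCNB1IP1 libraries and 16.1 to 16.5% in GFP libraries. Cct7 made up 18.3 to 18.6% in GFP-CCNB1IP1 libraries and 18.8 to 19.5% in GFP libraries. Tcp1 made up 12.96 to 13.53% in GFP-CCNB1IP1 libraries and 13.55 to 13.84% in GFP libraries, while Cct8 made up 7.86 to 7.99% in GFP-CCNB1IP1 libraries and 7.72 to 7.82% in GFP libraries. The shares of Cct2 and Cct8 were higher in every GFP-CCNB1IP1 library, where 5.93% of all genes, set against the same sum, showed this. Those of Cct7 and Tcp1 were lower in every GFP-CCNB1IP1 library, against 12.8% of all genes. In either direction this came to 4 of 8 subunits, against 18.7% of all genes. The subunits are part of the sum they are set against and other genes are not, so these percentages are not a like background. The gap for Tcp1 was narrow, 13.53% at most in GFP-CCNB1IP1 libraries and 13.55% at least in GFP libraries, and the levels of Tcp1 and Cct7 themselves overlapped. The shares of Cct3, Cct4, Cct5 and Cct6a overlapped between groups. Shares that sum to a whole depend on each other, and with 3 libraries a group the lowest exact two-sided p is 0.1, so the shares were not tested.

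**Figure D3:**
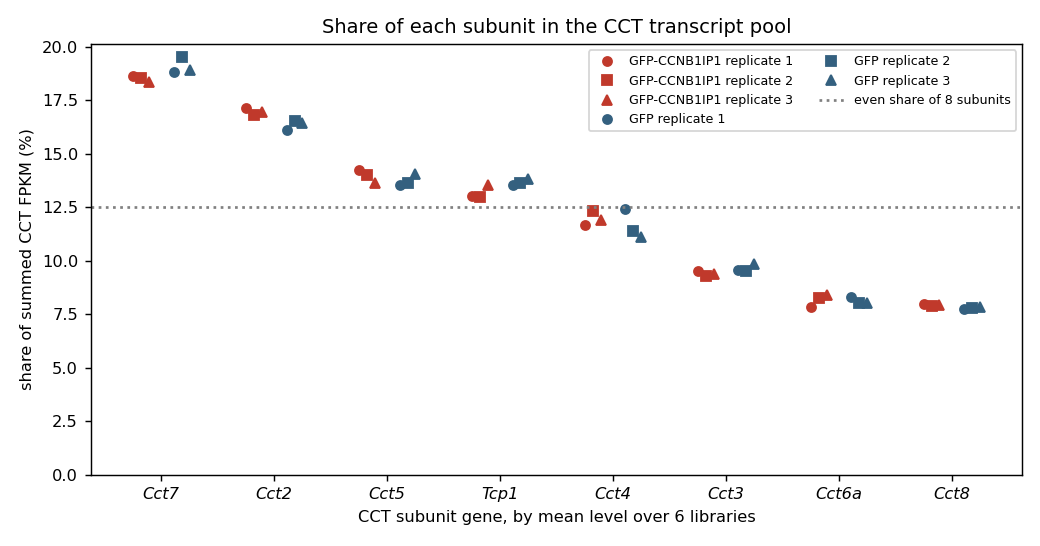
Share (%) of each subunit gene in the summed FPKM of the 8 genes, per library, with GFP-CCNB1IP1 libraries in red to the left of GFP libraries in blue; the dotted line is an even share of 12.5%. Cct7 has the highest share in all 6 libraries, and differences between groups are under 1 percentage point in the means.

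The 8 genes lie on 8 chromosomes, and 4 of them overlap the locus of another gene in the tables, small RNA genes apart. Whether reads were counted by strand is not stated, so shared stretches cannot be assigned with certainty. Tcp1 shares 645 bases with Mrpl18, a mitochondrial ribosomal protein gene with means of 18.8 FPKM in GFP-CCNB1IP1 libraries and 21.1 FPKM in GFP libraries, and 1255 bases with Acat3, below 1 FPKM in both. Cct6a shares 452 bases with Psph, the phosphoserine phosphatase gene, with means of 30.0 FPKM in GFP-CCNB1IP1 libraries and 28.9 FPKM in GFP libraries. Cct7 shares 457 bases with Pradc1, with means of 7.98 FPKM in GFP-CCNB1IP1 libraries and 9.43 FPKM in GFP libraries. Cct8 shares 192 bases with Usp16, a deubiquitinase gene with means of 17.6 FPKM in GFP-CCNB1IP1 libraries and 17.8 FPKM in GFP libraries. All these overlapping loci were far below the subunit genes. The named pseudogenes Tcp1-ps1 and Cct3-ps1 were listed at 0 in every library.

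The helpers and clients of CCT were read from the same fit, and none of their genes passed. Genes named from a list are those with its smallest p, so separated groups among them add no support. Of 9 prefoldin and prefoldin-like genes, 7 had positive and 2 negative estimates (6 and 3 with TPM or median-of-ratios scaling), and the median log2 fold change was 0.0996. Those with an unadjusted p under 0.05 were 2 higher and 0 lower, where 5.59% of all genes were higher at that level and 5.77% lower. Pfdn4, a prefoldin subunit, had 44.6, 40.0 and 40.9 FPKM in GFP-CCNB1IP1 libraries, against 34.1, 37.8 and 34.7 FPKM in GFP libraries (log2 fold change 0.23, SE 0.064; limma, adjusted p = 0.283). Every GFP-CCNB1IP1 library was above every GFP library for Pfdn4, as for 8.7% of all genes. Vbp1, which encodes prefoldin subunit 3 and is named for binding the VHL protein, averaged 77.9 ± 5.41 FPKM in GFP-CCNB1IP1 libraries and 68.4 ± 3.14 FPKM in GFP libraries (SD, n = 3 each; limma, adjusted p = 0.354). Uri1, of the prefoldin-like complex, averaged 16.4 ± 1.83 FPKM in GFP-CCNB1IP1 libraries and 14.3 ± 0.631 FPKM in GFP libraries. Pfdn1, another prefoldin subunit, averaged 28.5 ± 2.15 FPKM in GFP-CCNB1IP1 libraries and 26.5 ± 1.07 FPKM in GFP libraries. The median of this list was 0.021 without GFP-CCNB1IP1 replicate 3 and 0.040 without GFP-CCNB1IP1 replicate 1.

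The phosducin-like genes had 3 of 4 members above the filter, all with positive estimates and a median of 0.19. Of the 3, 2 were higher at an unadjusted p under 0.05, against 5.59% of all genes. Txndc9 averaged 35.0 ± 1.26 FPKM in GFP-CCNB1IP1 libraries and 30.6 ± 1.66 FPKM in GFP libraries (limma, adjusted p = 0.321). Its groups did not overlap, as for 8.7% of all genes in that direction. Pdcl3 averaged 29.5 ± 2.43 FPKM in GFP-CCNB1IP1 libraries and 25.4 ± 2.67 FPKM in GFP libraries (adjusted p = 0.435). Pdcl, which helps assemble G protein beta subunits, averaged 9.67 ± 0.304 FPKM in GFP-CCNB1IP1 libraries and 9.49 ± 0.596 FPKM in GFP libraries. The 3 chaperonin-like genes of the Bardet-Biedl complex, Mkks, Bbs10 and Bbs12, were low at 1.56 to 2.36 FPKM in group means, with a median log2 fold change of 0.028. Its sign rested on GFP replicate 3, without which it was -0.025. It was 0.069, 0.013 and 0.087 without GFP-CCNB1IP1 replicates 1, 2 and 3, 0.101 without GFP replicate 2, and 0.012 with a pseudocount of 5.

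Among clients, the actin and tubulin genes had estimates of opposite sign, and 0 of 12 passed. The 2 actin genes were positive and the 10 tubulin genes negative. Actb, the beta-actin gene, had 928, 868 and 869.8 FPKM in GFP-CCNB1IP1 libraries, against 734, 732 and 773 FPKM in GFP libraries. The groups did not overlap, and the difference did not pass (log2 fold change 0.25, SE 0.047; limma, adjusted p = 0.176). Tubb5, a beta-tubulin gene, had 351, 336 and 347 FPKM in GFP-CCNB1IP1 libraries, against 401, 381 and 391 FPKM in GFP libraries, and all its GFP-CCNB1IP1 libraries were below its GFP libraries (log2 fold change -0.18, SE 0.042; limma, adjusted p = 0.231). The alpha-tubulin gene Tuba1b averaged 286 ± 12.9 FPKM in GFP-CCNB1IP1 libraries and 332 ± 12.5 FPKM in GFP libraries (adjusted p = 0.241), and Tuba1a averaged 324 ± 16.7 FPKM in GFP-CCNB1IP1 libraries and 368 ± 4.84 FPKM in GFP libraries (adjusted p = 0.272). Of the 12, 7 were lower and 2 higher with an unadjusted p under 0.05, where 5.77% of all genes were lower and 5.59% higher. Groups did not overlap for 7 in the lower and 1 in the higher direction, against 8.9% and 8.7% of all genes. Actin genes share long stretches with one another, as do tubulin genes, so the split of reads among copies is uncertain.

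Tubulin folding cofactors, which take over tubulin after CCT, had 2 positive and 5 negative estimates (3 and 4 with loci under 300 bases left out) with a median of -0.022 on the log2 fold change scale. Its sign rested on single libraries. It was 0.023, 0.033 and -0.068 without GFP-CCNB1IP1 replicates 1, 2 and 3, and -0.039, -0.045 and 0.0043 without GFP replicates 1, 2 and 3. Tbca, the cofactor that holds beta-tubulin, had the smallest p of the list, with 152, 149.6 and 143 FPKM in GFP-CCNB1IP1 libraries, against 126, 132 and 124 FPKM in GFP libraries. Its groups did not overlap, and the difference did not pass (log2 fold change 0.22, SE 0.045; limma, adjusted p = 0.211). Separation in that direction was seen for 8.7% of all genes. Tbcc averaged 7.13 FPKM in GFP-CCNB1IP1 libraries and 7.71 FPKM in GFP libraries. Tbcd averaged 16.3 FPKM in GFP-CCNB1IP1 libraries and 17.4 FPKM in GFP libraries, and Tbcel 7.21 FPKM in GFP-CCNB1IP1 libraries and 6.78 FPKM in GFP libraries.

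Of 13 other clients, 6 had positive and 7 negative estimates (5 and 8 with TPM), with a median of -0.028. The median was -0.063 without GFP-CCNB1IP1 replicate 1, -0.047 and -0.012 without GFP replicates 1 and 3, -0.010 with a filter of 5 FPKM and -0.018 with loci under 300 bases left out. The mitotic kinase gene Plk1 averaged 5.84 ± 1.27 FPKM in GFP-CCNB1IP1 libraries and 8.47 ± 1.81 FPKM in GFP libraries (limma, adjusted p = 0.378), and Cdc20 averaged 7.47 ± 1.26 FPKM in GFP-CCNB1IP1 libraries and 9.49 ± 1.33 FPKM in GFP libraries (adjusted p = 0.431). Hdac3, a histone deacetylase gene, averaged 24.7 ± 0.601 FPKM in GFP-CCNB1IP1 libraries and 27.2 ± 1.08 FPKM in GFP libraries. Wrap53, a telomerase assembly factor gene, averaged 2.98 ± 0.310 FPKM in GFP-CCNB1IP1 libraries and 3.72 ± 0.451 FPKM in GFP libraries. At an unadjusted p under 0.05, Plk1, Cdc20 and Hdac3 were lower and 0 were higher, where 5.77% of all genes were lower and 5.59% higher.

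**Figure D4:**
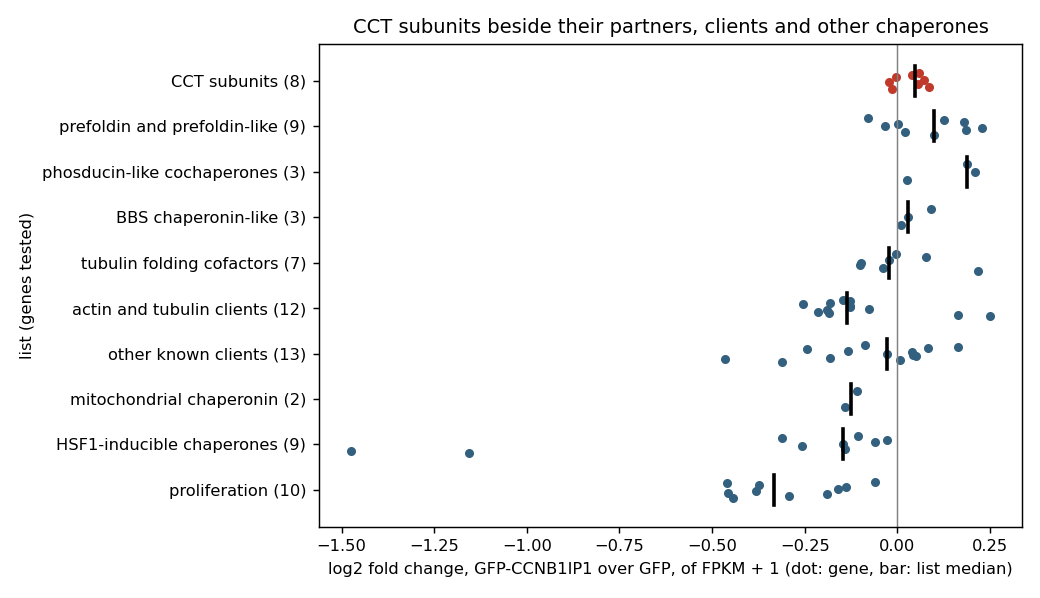
Log2 fold change of FPKM + 1, GFP-CCNB1IP1 over GFP (x axis), for each gene tested (dots) in the CCT subunits and in the lists of partners, clients, other chaperones and proliferation genes; bars are list medians. The CCT subunits lie within 0.1 of 0, and all genes of the HSF1 and proliferation lists that were tested lie below 0.

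The mitochondrial chaperonin genes and the tested heat shock chaperone genes had estimates below 0 in the same libraries. The mitochondrial chaperonin Hspd1, a distant relative of CCT, had 177, 152 and 171 FPKM in GFP-CCNB1IP1 libraries, against 182, 192 and 177 FPKM in GFP libraries (log2 fold change -0.14, SE 0.065; limma, adjusted p = 0.456). Without GFP-CCNB1IP1 replicate 2, its lowest library, the estimate was -0.078. Its lid Hspe1 averaged 201 ± 8.44 FPKM in GFP-CCNB1IP1 libraries and 217 ± 3.66 FPKM in GFP libraries (adjusted p = 0.428). All 9 tested chaperone genes known as targets of the heat shock factor HSF1 had negative estimates, with a median of -0.148, and 0 of 9 passed. The estimates ran from -1.48 for Hspa1b to -0.028 for Hsp90ab1. At an unadjusted p under 0.05, 5 of the 9 were lower, against 5.77% of all genes. Hspa1b averaged 1.91 ± 0.165 FPKM in GFP-CCNB1IP1 libraries and 7.22 ± 1.81 FPKM in GFP libraries (adjusted p = 0.0987). It passed only without GFP replicate 1 (adjusted p = 0.0341), while the other 14 alternatives in which it was tested gave adjusted p of 0.0598 to 0.430, among them 0.349 with the replicate block. Its near-identical neighbour Hspa1a averaged 0.554 ± 0.137 FPKM in GFP-CCNB1IP1 libraries and 2.48 ± 0.502 FPKM in GFP libraries, and the split of reads between this pair is uncertain. The small heat shock protein gene Cryab averaged 34.7 ± 2.09 FPKM in GFP-CCNB1IP1 libraries and 43.5 ± 4.2 FPKM in GFP libraries, and Hsph1 85.9 ± 7.73 FPKM in GFP-CCNB1IP1 libraries and 102.8 ± 9.25 FPKM in GFP libraries. The difference between these chaperones and the CCT genes was not tested.

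Proliferation genes were also read beside the subunits. Their summed level was 340 to 377 FPKM in GFP-CCNB1IP1 libraries and 408 to 467 FPKM in GFP libraries. Sums of other lists separated too, higher for the phosducin-like genes and tubulin folding cofactors, and lower for the mitochondrial chaperonin. All 10 had negative estimates, with a median of -0.33, and 0 of 10 passed. At an unadjusted p under 0.05, 5 of the 10 were lower, against 5.77% of all genes. The groups of Top2a, Cdk1, Pcna and Tyms overlapped. Mki67, the gene of the Ki-67 antigen, averaged 20.7 ± 1.31 FPKM in GFP-CCNB1IP1 libraries and 28.4 ± 0.641 FPKM in GFP libraries. Tk1, for thymidine kinase, averaged 37.7 ± 2.23 FPKM in GFP-CCNB1IP1 libraries and 52.2 ± 2.38 FPKM in GFP libraries. The helicase subunit gene Mcm5 averaged 15.3 ± 0.962 FPKM in GFP-CCNB1IP1 libraries and 20.1 ± 0.277 FPKM in GFP libraries, and the cyclin gene Ccna2 14.9 ± 0.752 FPKM in GFP-CCNB1IP1 libraries and 19.8 ± 1.9 FPKM in GFP libraries. Their part in the CCT values was not tested.

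The genes whose level followed the mean CCT profile most closely were sought among 6946 genes with a mean of at least 10 FPKM. Likeness was the root mean square distance between log2 profiles over the 6 libraries, each centred on its own mean. The closest were Adpgk, an ADP-dependent glucokinase gene (distance 0.0098), Ndufb7, of respiratory complex I (0.013), and Mtx2, of the mitochondrial outer membrane (0.014). Afg3l2, a mitochondrial protease gene, Cdc42se2 and Cers2, a ceramide synthase gene, followed at 0.015 to 0.016. The median distance over all candidates was 0.086. The members themselves lay at 0.016 for Cct8 to 0.054 for Cct4. The 6 named genes were nearer than any single subunit, but they were picked as the nearest of 6946 candidates. The mean profile itself ran only from -0.029 in GFP replicate 3 to 0.046 in GFP-CCNB1IP1 replicate 1. A gene that hardly varies between libraries therefore also lies near it. The profiles span only 6 libraries and small differences, so the distances describe these libraries.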

How the data were processed

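The authors deposited FPKM per gene, with interval bounds and a status, in 1 table per library, per the file headers. HISAT2 and Cufflinks are named in the submitters' processing notes; no source used here gives versions, genome build, annotation or strand. Start positions, taken as 0-based, were raised by 1. Rows of 38 repeated identifiers were summed, which left 53492 genes; 1 gene had a status other than OK.

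Genes with a mean FPKM of at least 1 (13231) were tested on log2(FPKM + 1) by limma 3.58.1 (R 4.3.3), two-sided, without a block and with its trend on mean level, Benjamini-Hochberg adjusted, calls at an adjusted p under 0.05. The test was checked on simulated data with independent noise and changes larger than any subunit estimate. That check does not cover changes of the size estimated for the subunits. Fragments were estimated as the square of FPKM over its standard error, reading a deposited bound as 2 standard errors. This takes all error as counting error. Relative depth used genes with 5 to 50 fragments.

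Members and lists were chosen with earlier results of these data known. All 8 members are named; of each list, up to 4 genes with the smallest p are given. Tubb3, Tbcc1, sequences and promoter motifs were not analysed here.

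Alternatives were other pseudocounts (0.1, 5), filters (none, 5), TPM, quantile normalization, median-of-ratios scaling, leaving out loci under 300 bases, a replicate block, no trend, and each library left out. Some single marker genes are not reported here.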

Additional observations from a re-analysis of the deposited data

How the results depend on the processing

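Under all 16 alternatives 0 of 8 subunit genes were called, with a lowest adjusted p of 0.414, and their median log2 fold change stayed positive. The count of genes called over all genes, 1 in the analysis reported, was 0 without the trend, without the filter, with a pseudocount of 5, with loci under 300 bases left out, and with the replicate block. It was 0 to 4 with a library left out. The ratio of summed CCT FPKM was 1.006 with quantile normalization, and 1.01 to 1.03 with a library left out. The median of all partner genes was -0.11 to -0.066 with a library left out.

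Small estimates changed sign. Cct3 was at 0.0055 with those short loci left out. With a library left out, Tcp1 ran from -0.039 to 0.0038, Cct3 from -0.030 to 0.019 and Cct7 from -0.034 to 0.00024; Pdcl ran from -0.018 to 0.064, Mkks from -0.067 to 0.11, Bbs10 from -0.037 to 0.10 and Bbs12 from -0.025 to 0.25.

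The deviations of same-numbered libraries correlated at 0.023, -0.0093 and -0.011, and GFP-CCNB1IP1 replicate 2 was nearest to GFP replicate 3 (0.046). The labels state no pairing, and such correlations cannot settle whether same-numbered libraries were handled together. With the replicate block 0 genes were called, and 0 subunits. The tables give no counts, so depth is known only through the estimated fragments, and its effect on the tests was not tested.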
